A study of Mus musculus with 11 samples.

Results

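The core and variant histone genes were followed across mouse pachytene spermatocytes and round spermatids, 2 successive stages of the male germ line, in *Dnmt3L* wildtype and heterozygous males. The members were the array probes whose gene symbol is that of a core, linker or variant histone gene: 94 probes of 64 genes, out of 19406 named genes on the array. By family they were 15 H2A genes, 16 H2B genes, 10 H3 genes, 12 H4 genes, 5 linker H1 genes, 3 replacement variants (H2ax, H3f3a and H3f3b) and 3 testis-specific genes (H2ac1, H2bc1 and H1f6). Of these genes, 49 lie in the large histone cluster on chromosome 13, 9 in the cluster on chromosome 3 and 6 elsewhere. A probe entered the tests if its mean over all 11 arrays was above the lowest 40% of probes, and 77 histone probes of 56 genes did so. The 8 genes with no such probe were H1f4, H2ac6, H2bc3, H2bc6, H3c3, H3c7, H3c8 and H4c14. Because the filter used the mean of all groups, a gene bright in 1 group only was more likely to enter, so counts over the tested probes describe those probes and not the whole family.

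The 4 groups were wildtype spermatocytes (3 arrays), *Dnmt3L* heterozygous spermatocytes (2 arrays), wildtype round spermatids (3 arrays) and *Dnmt3L* heterozygous round spermatids (3 arrays), all of C57Bl/6 mice aged 8 to 12 weeks. A further heterozygous spermatocyte preparation described in the study's methods was not analysed here. DNMT3L is a cofactor of the de novo DNA methyltransferases, and heterozygous males carry 1 allele disrupted by a LacZ cassette with stop codons. Each array measured total RNA from germ cells of 10 mice, purified by centrifugal elutriation, which sorts cells by size. The wildtype and heterozygous males share strain and age, and the p-values measure the spread between these preparations. Spermatocytes and spermatids were hybridised on separate chips, so chip and cell type cannot be told apart. In pooled RNA, fewer cells of a type and less RNA per cell cannot be told apart either. Values are log2 expression after normalisation, on which a difference of 1 is close to a factor of 2 for bright probes. Differences were taken within a probe, and brighter or dimmer tells the probes of 1 gene apart. Dim means a probe signal close to or not far above the array median of 6.87. It describes the probe and does not rank genes by expression.

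Histone octamers of H2A, H2B, H3 and H4 package DNA, and linker H1 binds where the DNA enters and leaves the octamer. The clustered, replication-dependent genes are used in S phase, and their mRNAs usually end in a stem-loop in place of a poly(A) tail. Replacement variants are made outside S phase from polyadenylated mRNAs, and germ cells add testis-specific forms before most histones give way to transition proteins and protamines. Whether the labelling reaction primed on poly(A) tails is not given in the sources used here.

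Many H2A and H2B genes of the chromosome 13 cluster stand head to head, with a shared stretch of promoter between their start sites. The RefSeq table (GRCm38.p6) gave promoter windows for 58 of the 64 genes, and 8 H2A-H2B pairs had between 163 and 280 bases between their start sites. The sequences between the start sites of 4 pairs are printed because these pairs differed in how their genes behaved between the cell types. Capitals mark the CCAAT box, the TATA box (TATAAA) and the octamer (ATTTGCAT) on either strand, and each line reads 5′ to 3′ on the plus strand.
H2bc13 and H2ac13 (chr13:21716184-21716411): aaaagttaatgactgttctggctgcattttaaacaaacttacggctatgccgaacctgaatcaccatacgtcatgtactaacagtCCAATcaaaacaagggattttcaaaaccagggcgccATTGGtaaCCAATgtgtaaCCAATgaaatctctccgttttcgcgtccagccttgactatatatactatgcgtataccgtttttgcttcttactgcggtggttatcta
H2ac15 and H2bc15 (chr13:21753913-21754075): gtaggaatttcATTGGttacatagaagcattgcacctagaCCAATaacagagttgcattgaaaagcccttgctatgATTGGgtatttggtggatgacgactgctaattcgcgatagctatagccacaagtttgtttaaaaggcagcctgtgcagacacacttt
H2ac8 and H2bc8 (chr13:23571221-23571399): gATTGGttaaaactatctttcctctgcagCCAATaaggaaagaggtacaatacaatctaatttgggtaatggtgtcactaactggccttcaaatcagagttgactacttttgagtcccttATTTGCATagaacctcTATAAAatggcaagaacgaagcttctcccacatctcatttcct
H2bc1 and H2ac1 (chr13:23934157-23934436): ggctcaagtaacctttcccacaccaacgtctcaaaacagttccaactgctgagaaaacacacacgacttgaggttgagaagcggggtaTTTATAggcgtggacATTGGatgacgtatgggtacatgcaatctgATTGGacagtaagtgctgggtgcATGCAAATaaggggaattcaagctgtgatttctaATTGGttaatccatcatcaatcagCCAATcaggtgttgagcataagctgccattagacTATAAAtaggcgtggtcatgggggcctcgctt

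All 4 stretches hold CCAAT, between 2 and 4 times, while the octamer is in the last 2 of them. Over the 250 bases before the start site, CCAAT on either strand was found in 84.7% of the 59 histone windows and in 33.8% of all 32851 windows. Every H2A, H2B and linker H1 window held it, as did 88.9% of H3 windows, but 27.3% of H4 windows. TATAAA was found in 49.2% of histone windows against 12.4% of all windows. The octamer ATTTGCAT was in 42.9% of H2B and 33.3% of H2A windows, in no H3 or H4 window, and in 1.6% of all windows. A match gives the letters in the window only.

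The first comparison asked how histone transcripts differed between wildtype round spermatids and spermatocytes. Core histone probes were mostly higher in spermatids, with the largest differences among H2A genes of the chromosome 13 cluster, while replacement variants H3f3b and H2ax were lower. Of the 77 tested histone probes, 34 (of 29 genes) rose and 6 (of 6 genes) fell at an adjusted p under 0.05 (limma, Benjamini-Hochberg over all tested probes). Over all 27986 probes, 11.5% were called higher and 15.5% lower. The median log2 difference of the histone probes was 0.52, and that of all tested probes was -0.03. The arrays of the 2 cell types did not overlap for 43 histone probes higher and 15 lower in spermatids, where 21.2% and 30.9% of all probes did not. With no filter on dim probes, 38 histone probes were called in all, against 40 here.

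**Figure D1:**
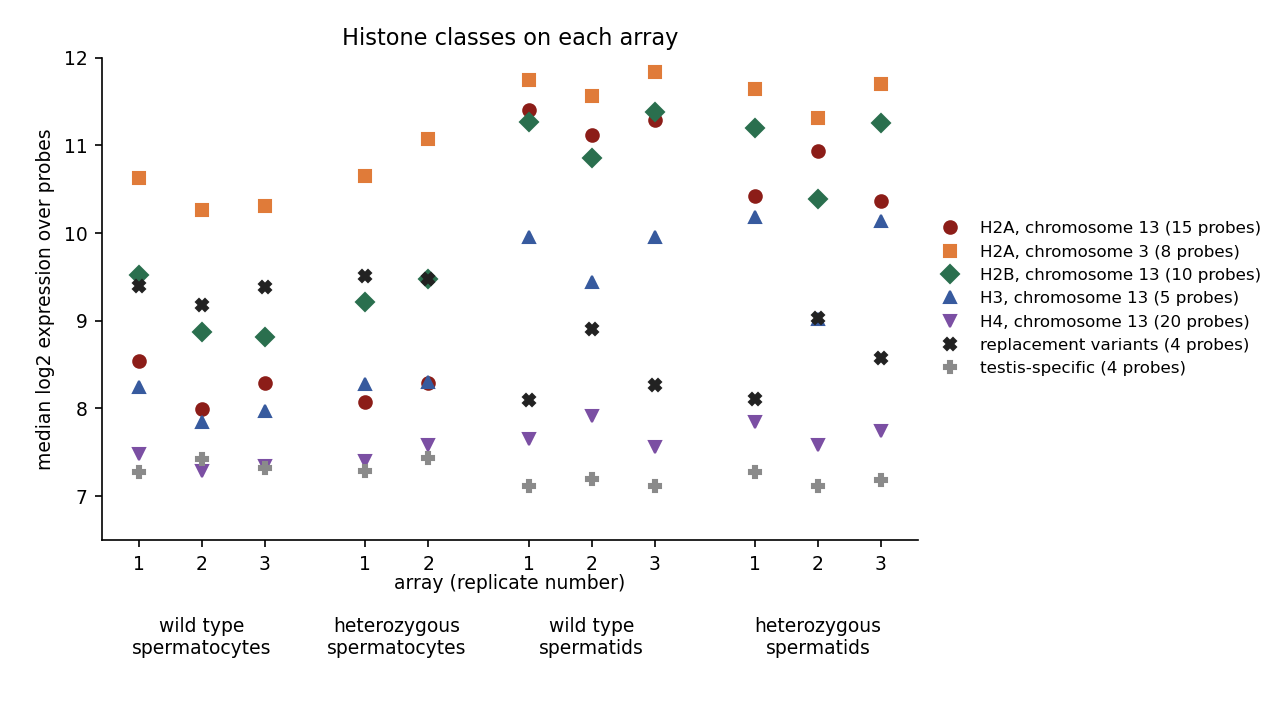
Median log2 expression of the tested probes of each histone class (vertical axis) on each of the 11 arrays, grouped by genotype and cell type along the horizontal axis. The median of the chromosome 13 H2A probes lay between 7.99 and 8.54 on the 5 spermatocyte arrays and between 10.37 and 11.40 on the 6 spermatid arrays. Heights of different classes come from different probes and are not comparable.

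H2A proteins form dimers with H2B at the faces of the octamer. Of the 15 tested H2A probes of the chromosome 13 cluster, 11 rose in wildtype spermatids and none fell, with a median difference of 2.79. H2ac13 (probe 4540039) measured 9.76, 9.13 and 9.42 in wildtype spermatocytes and 12.66, 12.17 and 12.57 in wildtype spermatids. The lowest spermatid array lay far above the highest spermatocyte array, and the fitted difference was 3.03 (SE 0.21, adjusted p = 0.000216, limma). H2ac15 measured 8.54, 7.99 and 8.22 in wildtype spermatocytes and 11.36, 11.12 and 11.29 in spermatids, with no overlap and a difference of 3.01 (SE 0.22, adjusted p = 0.000225, limma). H2ac11 went from 9.83, 9.04 and 9.38 to 12.53, 12.45 and 12.64, the largest rise among the histone probes at 3.12 (SE 0.34, adjusted p = 0.0014, limma). H2ac24 (probe 2480093) gave 9.61, 8.90 and 9.15 in spermatocytes against 12.37, 11.67 and 12.25 in spermatids, and H2ac12 (probe 3710333) gave 8.47, 7.63 and 8.21 against 11.38, 10.34 and 11.11. These groups did not overlap either, and the differences were 2.88 and 2.84.

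The remaining chromosome 13 H2A probes show a wide range. H2ac22 and the dimmer probe of H2ac10 rose by 2.28 and 2.82. H2ac7 rose by 0.61, and the brighter probe of H2ac24 rose by 1.00. The brighter H2ac10 probe, at 13.30, 13.10 and 12.79 in spermatocytes and 13.23, 13.74 and 13.78 in spermatids, had overlapping groups and a difference of 0.52 that was not called (adjusted p = 0.192, limma). The highest value on the arrays was 13.99, so this probe lay near the top of the scale in both cell types. The H2ac4 probes and H2ac8 stayed between 6.75 and 6.97 on all 11 arrays, close to the array median of 6.87.

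The 8 H2A probes of the chromosome 3 cluster had a smaller median difference, 0.57, and 3 were called higher and 1 lower. Both H2ac19 probes and H2ac18 probe 106860056 were bright in both cell types. Their wildtype group means ran from 12.34 to 13.27, near the top of the scale. Similarly bright chromosome 13 probes also rose little: H2ac7 by 0.61 and the brighter H2ac10 and H2ac24 probes by 0.52 and 1.00. The part of probe brightness in the smaller median was not tested. H2ac20 measured 11.25, 10.80 and 10.79 in wildtype spermatocytes and 12.57, 12.40 and 12.54 in spermatids. The groups were well apart, by 1.56 (SE 0.14, adjusted p = 0.000754, limma). The probes of H2ac18 disagreed: one rose by 1.06, another rose by 0.48, and probe 103390242 fell by 0.66 (adjusted p = 0.0302, limma), from 7.89, 8.17 and 8.38 to 7.33, 7.68 and 7.44. Leaving out any of 6 arrays (wildtype spermatocytes 2 and 3, either heterozygous spermatocyte array, wildtype spermatids 1 and 3) ended that last call, with adjusted p up to 0.104 without wildtype spermatid array 1.

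H2B genes of the chromosome 13 cluster rose in 7 of 10 tested probes and fell in none, with a median difference of 1.88. The 7 were H2bc7, H2bc9, H2bc11, H2bc12, H2bc13, H2bc14 and H2bc22, with rises from 0.89 for H2bc9 to 2.37 for H2bc11. H2bc13 measured 9.90, 9.07 and 9.10 in spermatocytes and 11.69, 11.42 and 11.68 in spermatids. Its groups were separated by a wide gap (difference 2.24, SE 0.3, adjusted p = 0.003, limma). Outside that cluster the H2B probes called were lower: H2bc18 on chromosome 3 went from 7.46, 7.56 and 7.62 to 6.93, 7.11 and 6.82. H2bu1-ps, a pseudogene, went from 7.48, 7.57 and 7.48 to 6.91, 7.07 and 6.79. Both fell by 0.59 with no overlap, and both are dim on every array. H2bc21, also on chromosome 3, went the other way, from 8.15, 8.14 and 7.75 to 8.93, 8.60 and 8.90. Its groups did not overlap, but the rise of 0.80 was not called (adjusted p = 0.0963, limma).

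H3 carries most of the well-known histone tail modifications. Of 7 tested H3 probes, 6 rose and none fell, with a median difference of 1.51. H3c4 measured 8.25, 7.89 and 8.01 in wildtype spermatocytes and 9.95, 9.44 and 10.01 in spermatids, a rise of 1.75 (SE 0.29, adjusted p = 0.00722, limma). The other H3 rises lay between 0.90 for H3c13 and 1.76 for H3c2, and the dim H3c14 gave -0.03.

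H4, the partner of H3 in the central tetramer, was mixed: 7 of 21 tested probes rose and 1 fell, with a median of 0.25. H4c6 (probe 102450672) measured 7.75, 7.55 and 7.52 in spermatocytes and 9.62, 9.47 and 10.00 in spermatids, a rise of 2.09 (SE 0.25, adjusted p = 0.00193, limma). Both H4c1 probes rose, by 1.99 and 1.90. H4c2 (probe 107040167) went the other way, from 9.42, 9.40 and 9.17 to 7.56, 8.25 and 7.30. It fell by 1.63 (SE 0.25, adjusted p = 0.0048, limma), while the other H4c2 probe stayed between 6.91 and 7.18 on all arrays. The H4c8 probes measured -0.60, -0.58 and -0.12 and were not called.

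**Figure D2:**
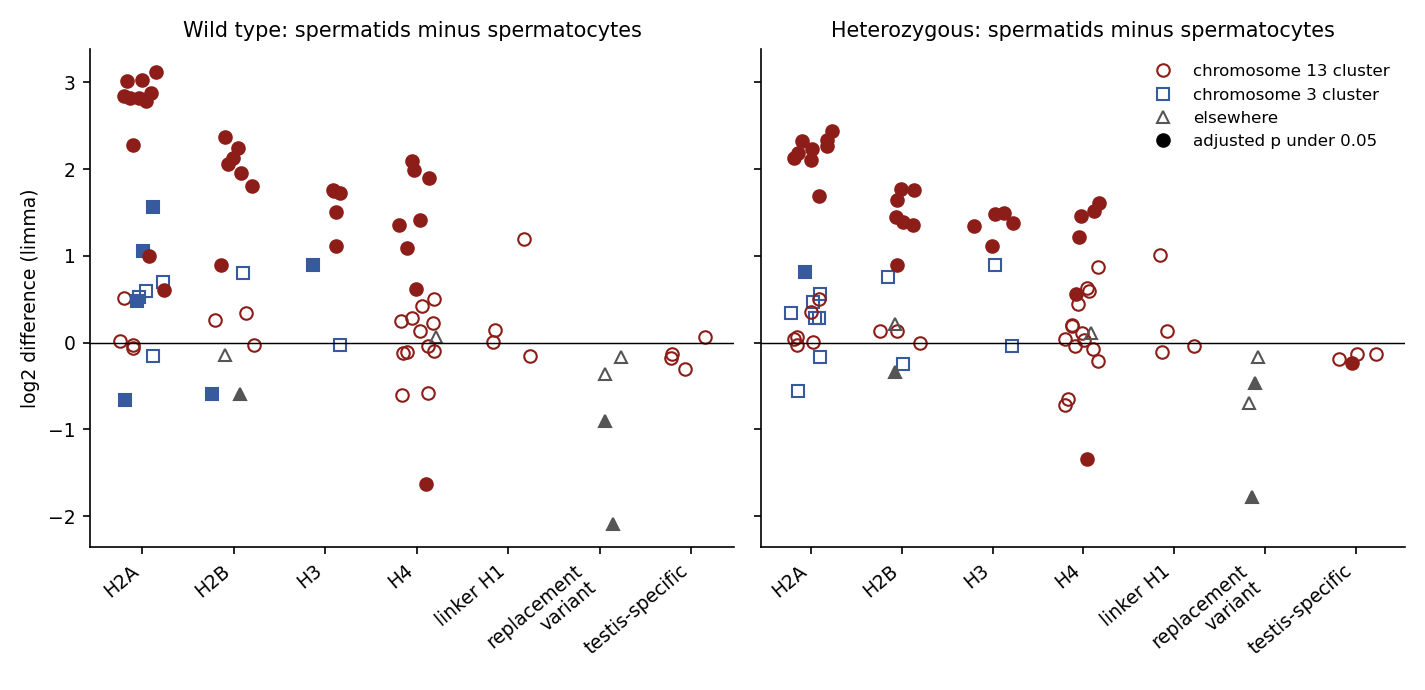
Log2 difference between spermatids and spermatocytes (vertical axis) for each of the 77 tested histone probes, by class, in wildtype (left) and heterozygous (right) cells. Filled symbols passed the adjusted p of 0.05. Chromosome 13 H2A probes reach 3.12 in wildtype and 2.44 in heterozygous cells, and the replacement variant H3f3b reaches -2.09 and -1.78.

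Of the 4 tested linker H1 probes none was called in either direction, and the median difference was 0.08. H1f2, a somatic linker histone, varied most among its replicates: 8.51, 7.46 and 7.05 in wildtype spermatocytes against 8.81, 7.85 and 9.96 in spermatids. These groups overlapped, and the difference of 1.20 (SE 0.54, adjusted p = 0.236, limma) did not pass. H1f1, H1f3 and H1f5 lay between 6.65 and 7.18 on all arrays.

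Of the replacement variants, H3f3b and H2ax were called lower in wildtype spermatids. H3f3b, which encodes the replacement histone H3.3, measured 10.61, 11.03 and 10.99 in wildtype spermatocytes and 8.20, 9.61 and 8.54 in spermatids on its brighter probe (1410300). Every spermatid array was below every spermatocyte array, and array 2 was the highest of the spermatids. It fell by 2.09 on the log2 scale (SE 0.44, adjusted p = 0.0171, limma), but the other H3f3b probe gave -0.16 (adjusted p = 0.483). H2ax, whose phosphorylated form marks DNA breaks and the XY body, went from 10.50, 10.00 and 10.74 to 9.51, 9.86 and 9.16, without overlap, and fell by 0.90 (SE 0.23, adjusted p = 0.0368, limma). H3f3a, the other H3.3 gene, went from 7.79, 7.71 and 7.83 to 7.50, 7.52 and 7.24, a difference of -0.36 that did not pass (adjusted p = 0.0541, limma). The H2ax call was lost on leaving out any of 7 arrays (wildtype spermatocytes 1 and 3, either heterozygous spermatocyte array, wildtype spermatids 1 and 3, heterozygous spermatid 3), with adjusted p up to 0.117 without wildtype spermatocyte array 3. The H3f3b call was lost without wildtype spermatocyte 2 or 3 or wildtype spermatid 1 or 3, with adjusted p up to 0.0607 without wildtype spermatid array 1.

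The probes of the testis-specific genes were dim in every group. H2ac1 and H2bc1 encode the H2A and H2B forms made in spermatocytes, and H1f6 encodes the linker histone H1t of meiotic cells. The brighter H2ac1 probe (102640594) measured 7.59, 7.71 and 7.46 in wildtype spermatocytes and 7.40, 7.52 and 7.30 in spermatids. H2bc1 measured 7.14, 7.16 and 7.20, then 7.05, 7.03 and 7.03, and H1f6 measured 7.19, 6.95 and 6.93, then 7.09, 7.01 and 7.17. The 4 probes of these genes gave differences from -0.30 to 0.06, and none was called in wildtype cells. Against the array median of 6.87, these probes carried little signal in a cell type labelled as pachytene spermatocytes, and the reason was not tested.

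A further 8 variant genes carry a histone symbol only under an older name and are not among the 64. H2az1, which encodes H2A.Z, measured 8.09, 8.03 and 8.22 in wildtype spermatocytes and 7.25, 7.36 and 7.10 in spermatids and fell by 0.88 (SE 0.083, adjusted p = 0.000819, limma). H2al2a, a spermatid H2A variant, measured 8.39, 7.71 and 8.00 against 9.84, 9.82 and 10.71, a rise of 2.09 (SE 0.43, adjusted p = 0.0156, limma), although leaving out wildtype spermatocyte array 2 or 3 ended the call (adjusted p up to 0.0585). Macroh2a2, a macroH2A variant, went from 9.17, 9.61 and 9.02 to 7.88, 8.34 and 7.75 and fell by 1.28 (SE 0.2, adjusted p = 0.00557, limma). For all 3 genes the wildtype groups did not overlap. Macroh2a1 on its brightest probe (103140138) measured 11.70, 11.98 and 11.36 against 10.45, 11.36 and 10.30 and did not pass (difference -0.98, adjusted p = 0.23, limma). H1f10 gave -0.24 and the brighter H2aj probe gave -0.22, neither called, while the dimmer H2aj probe and both H2aw probes fell (differences -0.30, -0.67 and -0.42). H1f8, the oocyte linker histone, did not enter the tests.

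**Figure D3:**
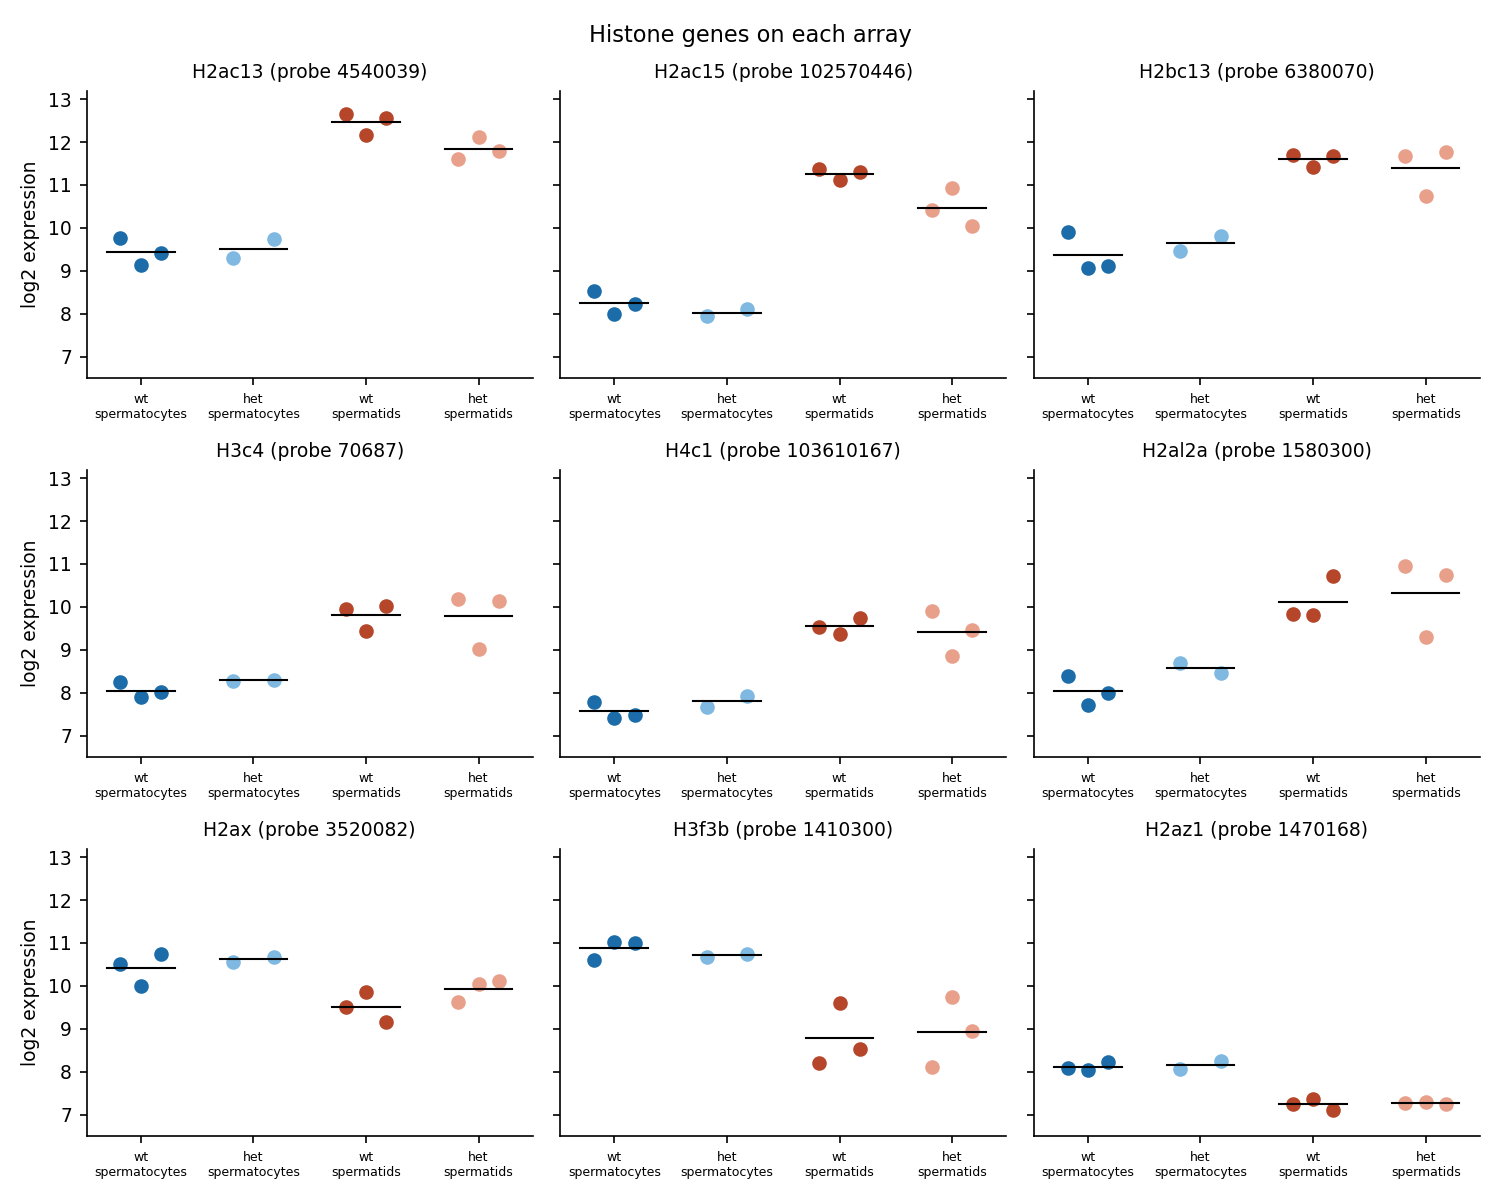
Log2 expression (vertical axis) of 9 histone probes on each array, by genotype and cell type. Points are arrays (n = 3, or n = 2 for heterozygous spermatocytes) and lines are group means. H2ac13, H2ac15, H2bc13, H3c4, H4c1 and H2al2a are higher in spermatids, and H2ax, H3f3b and H2az1 are lower in wildtype spermatids.

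The 8 head-to-head pairs bring the sequences and the values together. Both partners rose in wildtype spermatids in 5 pairs: H2bc13 and H2ac13, H2ac22 and H2bc22, H2ac12 and H2bc12, H2ac11 and H2bc11, and H2bc7 and H2ac7. In the first 4 of these the H2A gene had the larger fitted difference, and in the last the H2B gene had it (1.96 against 0.61). H2ac15 rose by 3.01 while its partner H2bc15, at 7.62, 7.44 and 7.18 in spermatocytes and 7.63, 7.54 and 8.08 in spermatids, had overlapping groups and a difference of 0.34 (adjusted p = 0.256, limma). In the pairs of H2ac8 and H2bc8 and of the testis-specific H2bc1 and H2ac1, neither gene was called. Among the stretches printed, those of these last 2 pairs hold the octamer. The printed pairs were picked by how their genes behaved, and the octamer was not set against the calls of the other genes. A link between the octamer and the calls was not tested.

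**Figure D4:**
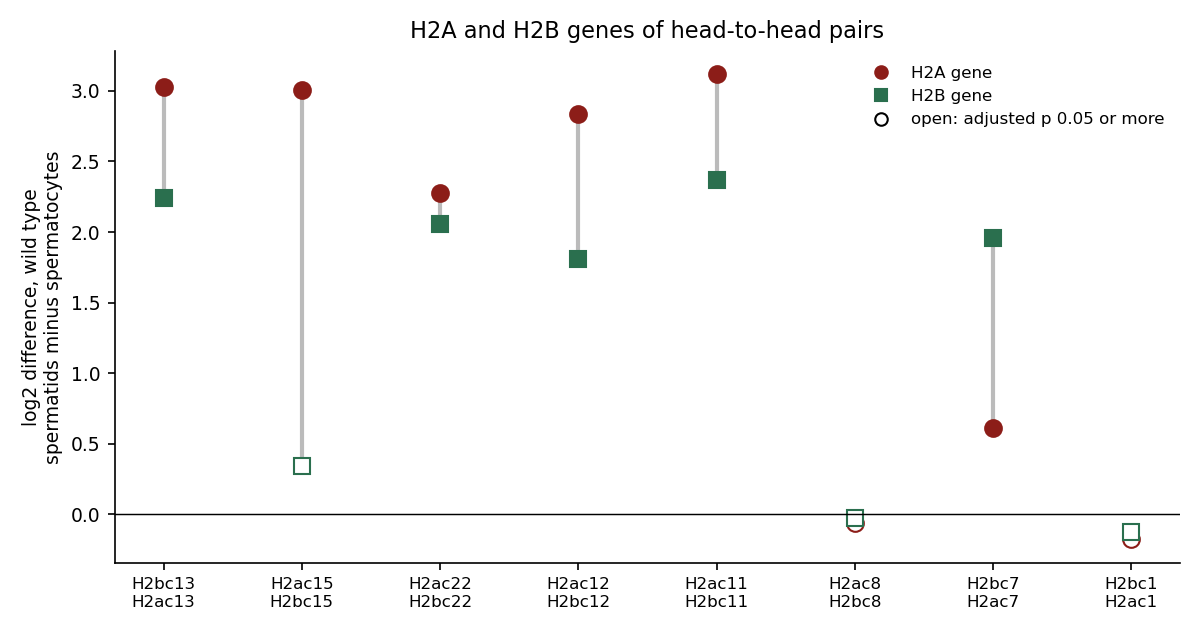
Log2 difference between wildtype spermatids and spermatocytes (vertical axis) for the H2A gene (circle) and H2B gene (square) of each of 8 head-to-head pairs, using the probe with the highest mean or only probe. Open symbols did not pass the adjusted p of 0.05. In 5 pairs both symbols are filled, and H2ac15 at 3.01 stands far above H2bc15 at 0.34.

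Probes of 1 gene did not always give the same call. Among genes with more than 1 tested probe, 18 in all, the probes disagreed in their call between the wildtype cell types in 9. Many clustered histone genes are near-identical in sequence, so which copy gave the signal of a probe is uncertain, and this was not tested. Some probes of different genes read nearly alike on all 11 arrays. The largest gap was 0.161 between H2ac7 and H2ac19 (probe 102450161) and 0.207 between H2bc11 and H2bc13. It was 0.245 between H2ac10 (probe 430072) and H2ac12 (probe 3710333). Counts of probes and genes may therefore include the same transcripts more than once.

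In heterozygous cells core histone probes were also mostly higher in the spermatid than in the spermatocyte preparations. Of the 77 probes, 27 rose and 5 fell, where 8.65% of all probes were called higher and 9.15% lower, and the median difference was 0.34 against -0.02 over all probes. The 15 chromosome 13 H2A probes had a median of 2.11, with 9 called higher. H2ac13 (probe 4540039) measured 9.29 and 9.73 in heterozygous spermatocytes and 11.61, 12.12 and 11.78 in spermatids, a rise of 2.33 (SE 0.24, adjusted p = 0.00104, limma). H2ac15 measured 7.95 and 8.10, then 10.42, 10.94 and 10.05, a rise of 2.44 (SE 0.24, adjusted p = 0.000961, limma). Neither gene's groups overlapped. H4c2 (probe 107040167) fell by 1.34, from 9.24 and 9.19 to 7.88, 8.23 and 7.50, a call lost without either heterozygous spermatocyte array (adjusted p up to 0.085).

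Among the variants, H2az1 fell by 0.88 in heterozygous cells too, from 8.07 and 8.24 to 7.28, 7.30 and 7.24. H3f3b (probe 1410300) measured 10.68 and 10.74, then 8.12, 9.74 and 8.94, and fell by 1.78 (adjusted p = 0.0494, limma). H3f3a fell by 0.46 (adjusted p = 0.0302) and H2bc1 fell by 0.23 (adjusted p = 0.0464), the only testis-specific call. H2ax measured 10.56 and 10.67 against 9.62, 10.04 and 10.11, a difference of -0.69 that did not pass (adjusted p = 0.144, limma). Single arrays left out ended the call of H3f3b in 9 of 11 cases (all but wildtype spermatid 2 and heterozygous spermatid 2), that of H2bc1 in 10 (all but heterozygous spermatocyte 1) and that of H3f3a in 8 (all but wildtype spermatids 2 and 3 and heterozygous spermatid 1). Leaving out heterozygous spermatocyte array 2 gave adjusted p = 0.193 for H3f3b and 0.314 for H2bc1, and leaving out array 1 gave 0.148 for H3f3a (limma). The count of 32 calls in all fell to 8 without heterozygous spermatocyte array 1, to 14 without array 2 and to 21 without heterozygous spermatid array 3. Calls over all probes fell as well, from 17.8% to 6.29%, 5.91% and 12%. The wildtype and heterozygous comparisons use different arrays and 1 shared estimate of spread.

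Genes that handle histones and genes of S phase were read beside them. Of 40 listed histone chaperones and histone mRNA processing factors, 29 were tested, of which 2 rose and 13 fell in wildtype spermatids, with a median of -0.34. Among the falls, Nap1l1, an H2A-H2B chaperone, fell by 1.52. Rbbp4, a subunit of chromatin assembly complexes, fell by 1.27, and Zfp473, which acts in histone pre-mRNA processing, fell by 1.08. The rises were Rbbp7 by 1.52 and Hat1, which acetylates newly made H4, by 1.50. Of 26 S-phase genes, 24 were tested: 4 rose and 9 fell, with a median of -0.29. In heterozygous cells 2 chaperone and processing genes rose and 4 fell (median -0.34), and 4 S-phase genes rose and 3 fell (median -0.23). Over all probes 11.5% were called higher and 15.5% lower in wildtype spermatids, and 8.65% and 9.15% in heterozygous spermatids. Among the wildtype differences, Fen1, a flap endonuclease of DNA replication, rose by 1.64 and Mcm5, of the replicative helicase, by 1.48, while Ccne2, a cyclin of S-phase entry, fell by 1.27 and Uhrf1, which recognises hemimethylated DNA, fell by 1.14. No gene of either list was called between the genotypes.

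Marker lists differed between the wildtype cell types as well, where 11.5% of all probes were called higher and 15.5% lower in spermatids. Of 11 tested round spermatid markers 10 rose in wildtype spermatids, with a median of 2.11, while none of 9 tested pachytene markers was called (median -0.24). Of 7 tested macrophage and blood markers 6 rose, with a median of 2.41, and the list's mean level lay between 6.99 and 7.21 on all spermatocyte arrays and between 8.46 and 9.97 on all spermatid arrays. Hba-a1, a haemoglobin chain, rose by 4.93 and Lyz2, a macrophage lysozyme, by 3.12. Of 10 spermatogonium markers 4 rose (median 0.43), none of 9 Sertoli markers was called (0.25), and of 6 Leydig markers 1 fell, with a median of 0.59. The part of these other cells in the histone differences was not tested.

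The second question was whether loss of 1 *Dnmt3L* allele was accompanied by a change in histone RNA. In spermatocytes none of the 77 histone probes was called, where 0.1% of all probes were called higher and 0.0858% lower, and 1 histone probe had an unadjusted p under 0.05 (2.92% of all probes did). The median difference was 0.06, and single probes lay between -0.30 and 0.49. The arrays of the 2 genotypes did not overlap for 8 probes higher and 5 lower in heterozygous cells, against 11.5% and 11.3% of all probes. The probe with p under 0.05 was H2ac20, at 11.17 and 11.63 in heterozygous and 11.25, 10.80 and 10.79 in wildtype spermatocytes. The groups overlapped through wildtype array 1, and the difference was 0.45 (SE 0.16, adjusted p = 0.124, limma). Without that array it was 0.60 and passed (adjusted p = 0.0361), the only histone call obtained when single arrays were left out of this comparison. The round spermatid marker list lay between 10.52 and 10.58 in heterozygous and between 9.57 and 10.33 in wildtype spermatocytes, without overlap, with a median difference of 0.46 and Lyzl6 called higher by 0.83 (adjusted p = 0.0256, limma). Its part in the H2ac20 difference here and in the interaction was not tested.

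In round spermatids 1 of the 77 histone probes was called lower and none higher, where 0.172% of all probes were called lower and 0.268% higher. That probe was H2ac15, at 10.42, 10.94 and 10.05 in heterozygous against 11.36, 11.12 and 11.29 in wildtype spermatids, with no overlap (difference -0.79, SE 0.22, adjusted p = 0.0488, limma). Its adjusted p lay just under the threshold: leaving out any 1 of 10 arrays, all but heterozygous spermatid 2, ended the call, with adjusted p up to 0.142 without wildtype spermatid array 1, while without heterozygous spermatid array 2 it was 0.00496 (difference -1.02). The call was also lost with no filter (adjusted p = 0.0805), with the replicate block (0.0812), with only the compared groups in the fit (0.118) and with adjustment within the contrast (0.874), where no tested probe of the array was called (limma). At an unadjusted p under 0.05 there were 7 histone probes, where 5.17% of all probes passed.

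H2ac15 stood among other H2A probes of the chromosome 13 cluster with lower values. Of these 15 probes 14 had a negative difference, where 45.7% of all probes did, and their median was -0.56 against 0.01 over all probes. Some of the 14 were close to 0, such as H2ac7 at -0.00 and the dim H2ac4 probes at -0.01 and -0.05. The sign was not particular to H2A: 9 of 10 chromosome 13 H2B probes and 39 of all 50 chromosome 13 core histone probes were negative. The groups did not overlap for 4 of the 15 H2A probes in the lower direction, where 3.27% of all probes were lower without overlap. They were H2ac11, H2ac13, H2ac15 and a dim H2ac4 probe with a difference of -0.05. In the higher direction the dim H2ac8, by 0.08, did not overlap, where 6.21% of all probes did not. Several of these probes may read the same transcripts, so the 15 are not independent. H2ac11 measured 11.73, 12.38 and 10.94 in heterozygous and 12.53, 12.45 and 12.64 in wildtype spermatids. Its groups were separate, with heterozygous array 2 just under the lowest wildtype array, and the difference was -0.86 (SE 0.34, adjusted p = 0.172, limma). H2ac13 (probe 4540039) measured 11.61, 12.12 and 11.78 against 12.66, 12.17 and 12.57, also with no overlap (difference -0.63, SE 0.21, adjusted p = 0.0994, limma). H2ac12 (probe 100780368) measured 10.16, 10.88 and 9.09 against 11.11, 10.72 and 10.96, where heterozygous array 2 fell inside the wildtype range and array 3 was far below it (difference -0.88, SE 0.38, adjusted p = 0.216, limma).

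The medians of the other families lay nearer to 0. The chromosome 3 H2A probes had a median of -0.05, the chromosome 13 H2B probes -0.21, the H3 probes -0.01, the H4 probes -0.01 and the replacement variants 0.14, and no difference between these families was tested. The array medians differed in which array stood apart. For chromosome 13 H2A probes they were 11.40, 11.12 and 11.29 in wildtype and 10.42, 10.94 and 10.37 in heterozygous spermatids, so array 2 was the highest in heterozygous and the lowest in wildtype spermatids. For chromosome 13 H2B probes the heterozygous medians were 11.20, 10.39 and 11.26, against 11.27, 10.85 and 11.38 in wildtype, so array 2 was the lowest in both groups. H3c4 showed the same, at 10.18, 9.02 and 10.14 in heterozygous and 9.95, 9.44 and 10.01 in wildtype spermatids. The pachytene marker Piwil1 was highest on array 2 in both groups (10.69, 12.61 and 11.45 in heterozygous, 10.96, 11.81 and 10.41 in wildtype). Tex101 was too, but Pgk2 was lowest there in both. The round spermatid marker Gapdhs was lowest on array 2 in both groups, while Prm1 was not. Whether cell make-up differed on these arrays was not tested. With both spermatid arrays numbered 2 left out, 8 histone probes were called: H2ac10, H2ac11, H2ac12, H2ac15, H2ac22 and both H2ac13 probes were lower (differences from -1.41 to -0.92), and H2bu2 was higher by 0.50. In that fit 2.34% of all probes were called lower and 3.06% higher, so calls were more frequent over the whole array. Array 2 was the highest heterozygous and lowest wildtype array for those H2A probes, so leaving both out was bound to widen their difference. These lower calls therefore add no separate support.

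**Figure D5:**
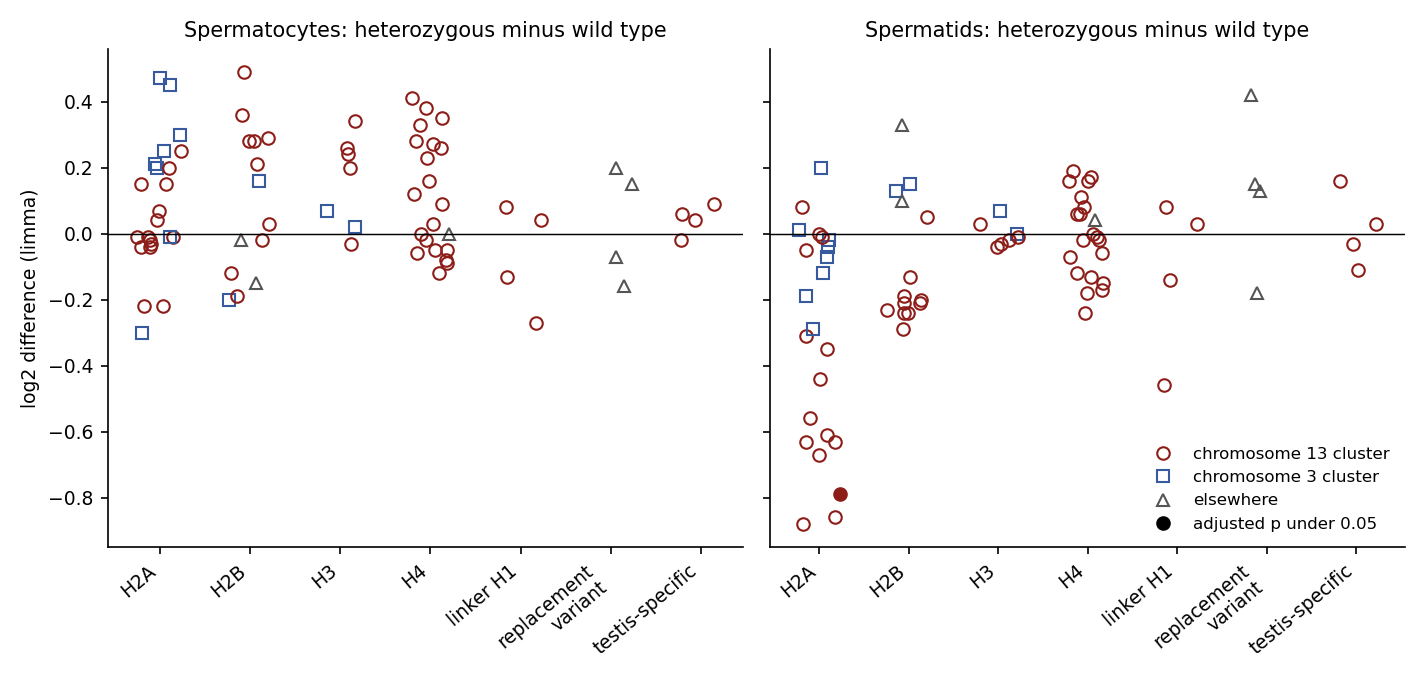
Log2 difference between heterozygous and wildtype cells (vertical axis) for each of the 77 tested histone probes, by class, in spermatocytes (left) and round spermatids (right). The only filled symbol, an adjusted p under 0.05, is H2ac15 at -0.79 in spermatids. Chromosome 13 H2A probes spread from -0.88 to 0.08 in spermatids and from -0.22 to 0.25 in spermatocytes.

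Variants showed no call between the genotypes. In spermatids H2ax measured 9.62, 10.04 and 10.11 in heterozygous and 9.51, 9.86 and 9.16 in wildtype cells, overlapping, with a difference of 0.42 (SE 0.23, adjusted p = 0.366, limma). H3f3b (probe 1410300) differed by 0.15, H3f3a by -0.18, H2az1 by 0.04, Macroh2a2 by 0.24 and H2al2a by 0.21. H1f10 measured 9.79, 9.97 and 10.06 against 9.62, 9.79 and 9.40, which touch at 9.79 (difference 0.33, adjusted p = 0.151, limma). The macrophage and blood list lay between 9.03 and 9.04 in heterozygous and between 8.46 and 9.97 in wildtype spermatids, with a median difference of -0.40 and none of its genes called, and its part in the lower H2A values was not tested. The round spermatid list lay between 11.80 and 12.30 in heterozygous and between 11.81 and 12.37 in wildtype spermatids. For the spermatogonium list the ranges were 7.70 to 7.87 and 7.73 to 8.15, with a median difference of -0.07 and no gene called. Its genes ran from -0.68 for Kit to 0.11 for Sohlh2. Kit measured 8.20, 8.73 and 8.55 in heterozygous and 9.10, 8.45 and 9.97 in wildtype spermatids. The part of spermatogonia in the lower H2A values was not tested either.

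The last comparison asked whether the genotype difference itself differed between the cell types. No histone probe was called, and 0% of all probes were, while 2 histone probes had an unadjusted p under 0.05 (2.02% of all probes did). They were H2ac20, whose difference between genotypes went from 0.45 in spermatocytes to -0.29 in spermatids (interaction -0.74, unadjusted p = 0.00777, adjusted p = 1, limma), and H2bc22, at 0.49 and -0.21. In spermatids H2ac20 measured 12.23, 12.22 and 12.19 in heterozygous and 12.57, 12.40 and 12.54 in wildtype cells, groups that did not overlap. The H2ac15 difference in spermatids was thus not shown to differ from that in spermatocytes, where it was -0.22.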

How the data were processed

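RNA of 11 preparations was measured on Illumina mouse bead arrays. The deposited values are log2 expression, which the authors made in BeadStudio and lumi by subtracting the mean of negative controls, applying a variance-stabilising transformation and quantile normalising. They were used as deposited. A table of bead signals with 22 value columns named by numbers that match no sample label was not used. Of 46643 probes 32794 had 1 gene symbol in the platform annotation, 55 had several and 13794 had none.

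limma 3.58.1 (R 4.3.3) fitted the 4 group means on all 11 arrays after leaving out the 40% of probes with the lowest mean. P-values were adjusted over all probes and the 4 contrasts together, and for the interaction alone, at 0.05. The script was tested on simulated data. The number of arrays limits the precision. Replicate numbers were not used to pair the samples in the main fit. Correlations of deviations from group means ran from -0.26 to 0.33 for arrays of the same number, and from -0.5 to 0.38 for arrays of different numbers. Between wildtype and heterozygous spermatids the same-number correlations were 0.28, 0.33 and 0.06.

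The histone genes, the chaperone, S-phase and marker lists, and the tests were chosen with earlier results of these data known. Per-array values were to be given for testis-specific genes, replication-independent variants, probes called or with an unadjusted p under 0.01 between genotypes or in the interaction, and the 5 largest called changes each way between cell types. Other probes were named after their values were seen. Alternatives varied the filter, adjustment, arrays fitted, variance prior, array weights, replicate block and averaging of a gene's probes, and left out arrays.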

Additional observations from a re-analysis of the deposited data

How the results depend on the processing

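The count of histone probes called between the wildtype cell types, 40, lay between 32 and 45 with single arrays left out, and under every other alternative run between 36 and 59. In heterozygous cells it was 32, and 14 with only the compared groups in the fit (17.8% and 7.94% of all probes), and lay between 8 and 38 with single arrays left out (8 and 14 without heterozygous spermatocyte array 1 and 2). Between genotypes in spermatids the count was 1. It was 0 with no filter, with adjustment within each contrast, with only the compared groups and with the replicate block, 8 with array weights and 8 without both spermatid arrays numbered 2, and lay between 0 and 6 with single arrays left out. Over all probes 0.44% were called there, 4.58% with array weights, 5.4% without both arrays numbered 2 and 4.79% without heterozygous spermatid array 2. In spermatocytes it was 0 and lay between 0 and 1. The interaction gave 0 throughout. The cause of these moves was not tested. With the replicate number as a block the counts were 0, 0, 42 and 29, against 0, 1, 40 and 32 without it. Of 15 named calls between wildtype cell types 11 held whichever single array was left out, as did 5 of 14 in heterozygous cells, and no named difference turned sign while called. H2ac15 in heterozygous spermatids had adjusted p from 0.00433 with array weights to 0.874 when adjusted within the contrast. Normalisation from bead signals was not run because the columns matched no label. Each chip held 1 cell type, so the chip adds no term to the 4 group means. The fit of only the compared groups is the genotype comparison within a chip, and the chip could not be fitted as a block for cell type.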
